A study of Mus musculus with 16 samples.

Results

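The 34 genes described here encode the machinery that oxidises fatty acids in mitochondria and peroxisomes, together with 2 nuclear receptors that control it. They were chosen by symbol from what is known of the pathway, though with earlier results of these data known. All 34 were found among the 16091 genes of the deposited table and passed the filter on low values. The tissue was inguinal white fat, a subcutaneous depot at the groin, of C57BL6/J mice. There were 4 groups of 4 libraries, 16 in all: mice on the high-fat diet given anti-PDGFcc antibody, mice on the high-fat diet left untreated, mice on the control diet given the antibody, and mice on the control diet left untreated. Treated mice were 6 weeks old and received AF1447, an antibody against the growth factor ligand PDGF-CC, by injection into the peritoneum. Each dose was 50 mg/kg, given in a PBS volume of 100 µl, with an interval of 2 days over 2 weeks. The labels name no transgene or deletion in any group. The composition and duration of the diets, whether untreated mice received an injection, and whether each library is a separate mouse are not stated in the labels. The p-values therefore set group differences against the spread between libraries, part of which may be technical, and may not speak for separate mice.

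Long-chain fatty acids enter mitochondria as carnitine esters, and repeated rounds of dehydrogenation, hydration, a further dehydrogenation and thiolysis then release acetyl-CoA. Electrons from the first step pass through the electron transfer flavoprotein to ubiquinone. Peroxisomes shorten very long and branched chains with enzymes of their own. In adipose tissue this capacity is highest in thermogenic brown and beige fat cells, which burn fatty acids to make heat, and is modest in white fat cells, which mainly store them; the PPAR family of fatty acid-activated receptors induces many of the genes.

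Promoter windows, running from 250 bases before to 50 after a RefSeq start site on GRCm38.p6, were at hand for 28 of the 34 genes, in 29 windows. The 4 printed below belong to Cpt1a, the 1 member that rose on the high-fat diet, to Etfb and Acadvl, which fell, and to Hadha, whose window shares 228 bases with that of Hadhb on the opposite strand, so that the 2 subunits of 1 enzyme complex share an upstream region. Capitals mark the letters CCAAT, the NRF1 motif (in Etfb, the stretch of capitals nearest the start site) and AGGTCA, a nuclear receptor half-site, on either strand. In the Hadha window none of the 3 was found.
Cpt1a promoter, chr19:3323051-3323350, plus strand: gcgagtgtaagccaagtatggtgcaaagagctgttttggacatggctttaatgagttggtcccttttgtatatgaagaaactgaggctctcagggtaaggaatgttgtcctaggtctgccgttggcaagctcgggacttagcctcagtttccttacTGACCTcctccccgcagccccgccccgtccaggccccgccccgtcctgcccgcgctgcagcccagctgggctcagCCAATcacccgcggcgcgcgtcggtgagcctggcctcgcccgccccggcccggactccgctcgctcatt
Etfb promoter, chr7:43443822-43444121, plus strand: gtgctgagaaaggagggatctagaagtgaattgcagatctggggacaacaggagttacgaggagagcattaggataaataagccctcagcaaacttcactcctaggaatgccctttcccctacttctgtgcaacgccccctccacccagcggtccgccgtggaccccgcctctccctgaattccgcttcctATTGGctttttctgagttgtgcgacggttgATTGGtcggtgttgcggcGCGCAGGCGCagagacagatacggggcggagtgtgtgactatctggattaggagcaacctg
Acadvl promoter, chr11:70015379-70015678, minus strand: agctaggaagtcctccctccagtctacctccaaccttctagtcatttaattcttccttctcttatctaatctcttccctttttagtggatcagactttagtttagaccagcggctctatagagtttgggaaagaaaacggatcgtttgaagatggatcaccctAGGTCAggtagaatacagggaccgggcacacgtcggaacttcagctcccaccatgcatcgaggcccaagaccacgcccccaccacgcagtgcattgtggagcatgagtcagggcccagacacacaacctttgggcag
Hadha promoter, chr5:30154931-30155230, minus strand: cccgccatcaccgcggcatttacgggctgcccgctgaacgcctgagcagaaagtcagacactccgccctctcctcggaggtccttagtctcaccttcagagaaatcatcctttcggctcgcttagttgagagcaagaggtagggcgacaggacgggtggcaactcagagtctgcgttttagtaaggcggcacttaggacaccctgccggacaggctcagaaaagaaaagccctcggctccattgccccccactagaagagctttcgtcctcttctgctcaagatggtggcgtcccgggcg
CCAAT was found in 11 of the 28 genes, against 37.4% of all 32851 promoter windows, and the half-site in 5 (Acadm, Acadvl, Cpt1a, Echs1 and Scp2), against 16.3% of windows. The NRF1 motif was found in 4 (Abcd3, Etfb, Etfdh and Ppara), against 4.6% of windows. None of the 28 held TATAAA, which 13.6% of windows hold, or the PPAR-type direct repeat of 2 half-sites spaced by 1 base, which 0.0396% hold. A looser repeat of AGGNCA with the same spacing (0.381% of windows) and TCAAGGTCA (0.423%), the element of the oestrogen-related receptors, were also in none; TCAAGGTCA and the strict repeat both contain the half-site. The members' windows were rich in G and C, with a median of 60.7% against 52.7% over all windows.

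Values are normalized counts as the authors deposited them. Library totals, divided by 1e6, lay between 24.02 and 28.15. Adiponectin (Adipoq), a defining fat cell product, stood between 78008 and 97146 normalized counts in the 16 libraries, and none of the 10 adipocyte markers was at 0. Other tissue was present in unequal amounts: the sum of 14 skeletal muscle markers, all in the table and none at 0 throughout, was 202 to 10054 in high-fat mice with antibody, 7104 to 625447 in untreated high-fat mice, 38255 to 209049 in control-diet mice with antibody and 298.9 to 40057 in untreated control-diet mice. The sum of 11 brown and beige markers (of 12 listed) was 2886 to 19121 in high-fat mice with antibody, 3123 to 18999 in high-fat mice without, 14434 to 60517 in control-diet mice with antibody and 5441 to 93186 in those without. In the bulk tissue fewer cells of a type and less RNA per cell cannot be told apart.

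Scaled by exonic length, the levels differed widely between the genes. Acadl, the long-chain acyl-CoA dehydrogenase, was the highest, with 7702 normalized counts per kb as the mean over all 16 libraries, ahead of Acaa2 (the mitochondrial thiolase) with 5308, Etfa with 5096 and Acadvl with 5015. At the other end stood Acot1 with 7.039 and Cpt1b with 28.85 normalized counts per kb. The carnitine palmitoyltransferase 1 isoforms were thus far apart: Cpt1a, the isoform of liver and most other tissues, had 303.8 per kb, more than the muscle and brown fat isoform Cpt1b. The level of Cpt1b is uncertain, since 78.6% of its 50-base exonic windows also occur in Gm44502, annotated on the same strand. The receptors Ppara and Ppard were close to each other at 139.3 and 133.4 per kb.

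**Figure D1:**
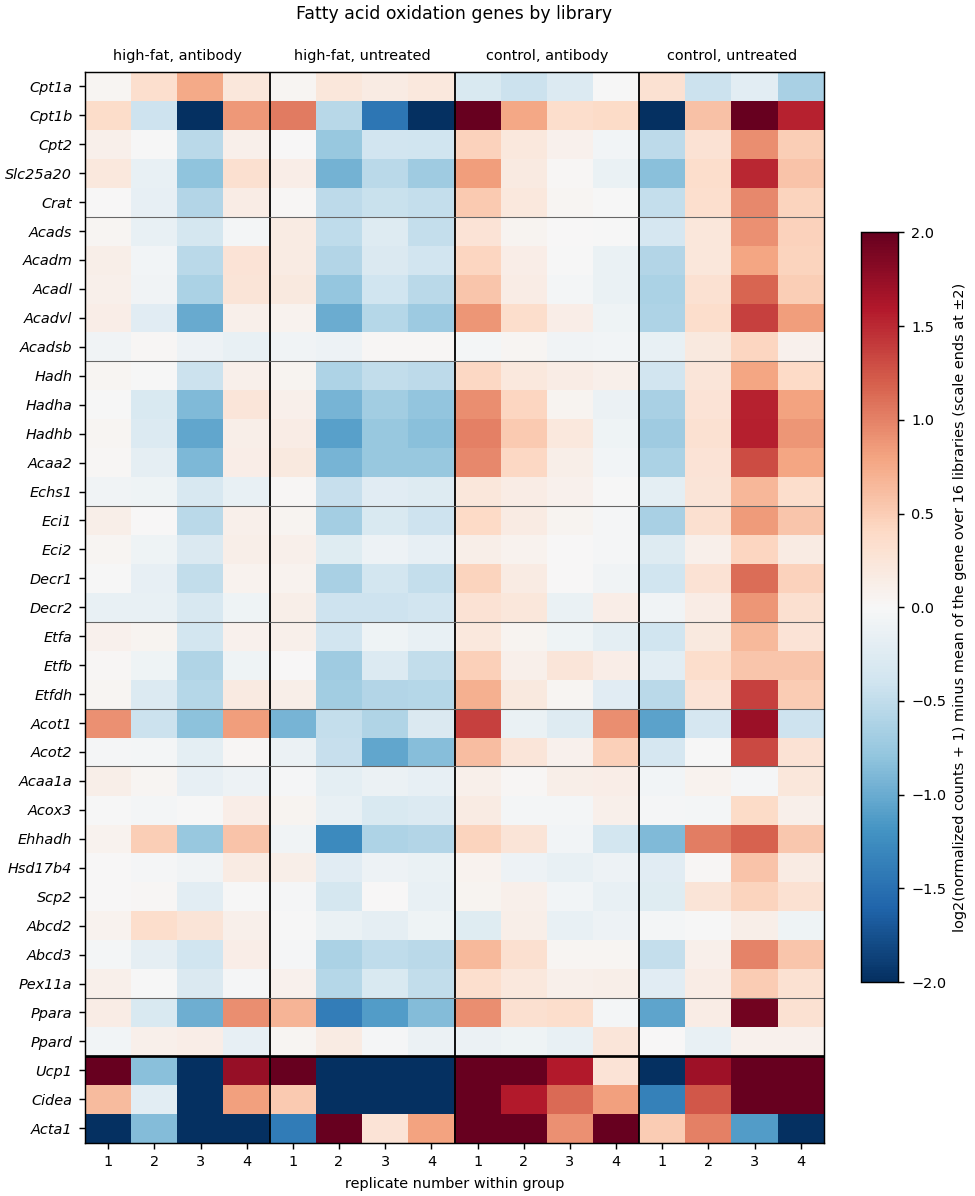
Level of each of the 34 genes (rows, grouped by role) in each of the 16 libraries (columns, grouped by diet and antibody), as log2(normalized counts + 1) minus the gene's mean over all libraries. Untreated control-diet replicate 3 is high for most genes (mean deviation 0.92), whereas untreated control-diet replicate 1 (-0.47) and high-fat antibody replicate 3 (-0.52) are low. Untreated high-fat replicates 2 (-0.56), 3 (-0.42) and 4 (-0.48) are low as well.

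On the high-fat diet most of the oxidation genes were lower than on the control diet, and 1, Cpt1a, was higher. In the comparison of diets averaged over antibody, 31 of the 34 genes had a negative log2 change, against 45.9% of the 14189 genes tested, with a median of -0.46 for the 34 and 0.02 for all genes. Of the 34, 10 fell past the threshold (an adjusted p under 0.05 in limma), against 11.1% of all genes, and 1 rose, against 8.28%. The 10 that fell come from every enzymatic step of the mitochondrial cycle and from peroxisomes, while no member of the PPAR receptor pair passed. The 11 calls were uneven in strength: over 16 fits that each left out 1 library, 4 to 27 of the 34 passed while 11.2% to 33.3% of all genes did, against 19.4% with every library, and of the 11 only Cpt1a, Etfb, Echs1 and Decr2 passed in all 16.

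Cpt1a encodes the outer-membrane enzyme that commits long-chain acyl groups to mitochondria, the step at which oxidation is mainly regulated, and lies at chr19:3322334-3385733 on the plus strand (GRCm38, GENCODE vM21). It had 2308, 2836, 3820 and 2638 normalized counts in high-fat mice with antibody and 2323, 2645, 2534 and 2612 in high-fat mice without it. In control-diet mice it had 1820, 1667, 1866 and 2237 with antibody, and 2781, 1671, 1947 and 1442 without. All 8 high-fat libraries lay above 7 of the 8 control-diet libraries; the exception was untreated control-diet replicate 1, the library of that group in which most other members were lowest. The averaged log2 change was 0.50 ± 0.12 (SE; limma, adjusted p = 0.0162), and it stayed between 0.43 and 0.59 as each library was left out. Taken by antibody status, the change was 0.59 ± 0.18 with antibody (limma, adjusted p = 0.125), where the groups did not overlap, and 0.41 ± 0.18 without (limma, adjusted p = 0.135), where they did; neither passed.

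The rest of the carnitine shuttle lay on the other side of 0, without a call. Cpt1b had 74.45, 43.03, 3.664 and 106.2 normalized counts in high-fat mice with antibody, 119.7, 38.81, 20.49 and 10.48 in high-fat mice without, 250.9, 98.68, 73.53 and 75.58 in control-diet mice with antibody, and 11.08, 87.14, 373.5 and 169.2 in untreated control-diet mice. The groups overlapped, and its averaged log2 change was -1.53 ± 0.76 (SE; limma, adjusted p = 0.156). Untreated high-fat replicate 2, the library with the largest sum of muscle markers, had 38.81 normalized counts of this isoform, in the middle of its group. Cpt1b is the least certain of the 34, since 78.6% of its 50-base exonic windows also occur in Gm44502, a gene annotated on the same strand across it. Cpt2, the inner-membrane partner that regenerates acyl-CoA, averaged 6567 ± 1255 in high-fat mice with antibody and 5362 ± 1153 in high-fat mice without, and 7838 ± 1192 in control-diet mice with antibody and 8966 ± 3407 in control-diet mice without (SD, n = 4 each), a log2 change of -0.47 ± 0.18 (limma, adjusted p = 0.0696). The carnitine-acylcarnitine carrier Slc25a20 (log2 change -0.63, limma, adjusted p = 0.123) and carnitine acetyltransferase Crat (-0.51, limma, adjusted p = 0.0519) did not pass either.

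**Figure D2:**
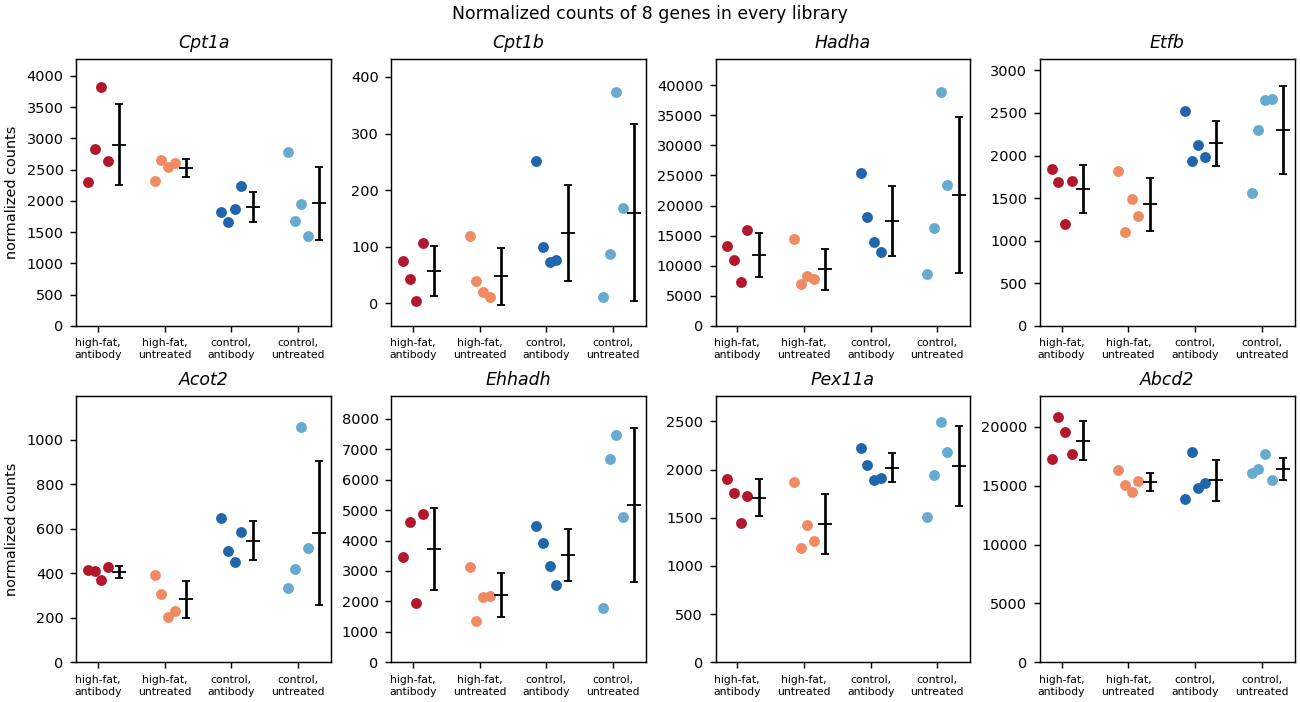
Normalized counts of selected genes in each library (points) with the group mean and SD (bars), in high-fat mice with antibody, high-fat mice without, control-diet mice with antibody and control-diet mice without, each n = 4. Cpt1a is higher in both high-fat groups (means 2901 and 2529) than in both control-diet groups (1898 and 1960), while most other genes shown are lower in both high-fat groups, most of them with the widest spread in untreated control-diet mice.

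Among the 5 acyl-CoA dehydrogenases, which carry out the first step of each round, all 5 were lower on the high-fat diet and 1 passed. That was Acadvl, which acts on very long chains: it had 13262, 10400, 6023 and 12987 normalized counts in high-fat mice with antibody and 12653, 6101, 8186 and 7289 in high-fat mice without, against 22329, 15492, 13273 and 11357 in control-diet mice with antibody and 7918, 15483, 31173 and 21607 in those without. It fell by 0.80 on the log2 scale (SE 0.26; limma, adjusted p = 0.044), although untreated control-diet replicate 1 was as low as the high-fat libraries. The call was kept in 4 of the 16 fits with a library left out. Acadl (log2 change -0.47 ± 0.22, limma, adjusted p = 0.142) and the medium-chain Acadm (-0.32 ± 0.18, limma, adjusted p = 0.206) did not pass, nor did the short-chain Acads (-0.39 ± 0.15, limma, adjusted p = 0.0678). Acadsb, which serves branched chains from isoleucine, differed least of the 5, at -0.11 ± 0.07 (limma, adjusted p = 0.25). Exons of Acadvl overlap those of Dvl2 on the opposite strand by 1151 bases, and the use of strand in counting is not known here.

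The enzymes that complete the round had the most calls, 4 of 5. Echs1, the short-chain enoyl-CoA hydratase (chr7:140105710-140116476, minus strand), had 8665, 8588, 7222 and 8159 normalized counts in high-fat mice with antibody and 9165, 6617, 7789 and 7571 in high-fat mice without. It had 10609, 10091, 9626 and 9056 in control-diet mice with antibody and 7903, 10885, 14330 and 11544 in those without. Every high-fat library but untreated replicate 1 lay below every control-diet library but untreated replicate 1. Echs1 fell by 0.39 on the log2 scale (SE 0.10; limma, adjusted p = 0.0202). Hadh, the hydroxyacyl-CoA dehydrogenase of shorter chains, averaged 13473 ± 2092 in high-fat mice with antibody and 10863 ± 2475 in high-fat mice without, and 16374 ± 1612 in control-diet mice with antibody and 17528 ± 5516 in control-diet mice without (SD, n = 4 each), and fell by 0.47 (SE 0.15; limma, adjusted p = 0.0356). The call of Hadh was kept in 7 of the 16 fits with a library left out.

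Hadha and Hadhb, the subunits of the trifunctional protein that handles long chains, changed alike but on either side of the threshold. Hadhb had 6164, 4982, 2921 and 6556 normalized counts in high-fat mice with antibody and 6644, 2841, 3569 and 3375 in those without, against 12156, 8633, 6972 and 5694 in control-diet mice with antibody and 3673, 7459, 17665 and 11137 in those without. Hadhb fell by 0.92 on the log2 scale (SE 0.29; limma, adjusted p = 0.0392), the largest fall past the threshold among the 34 genes, and the log2 change of Hadha was -0.82 ± 0.28 (limma, adjusted p = 0.0506). Each subunit was lowest in high-fat untreated replicate 2 and high-fat antibody replicate 3 and highest in untreated control-diet replicate 3. Hadhb shares 19.7% of its 50-base windows with other genes, mainly the annotated gene Gm13910. Acaa2 fell by 0.79 (SE 0.26; limma, adjusted p = 0.0458) with means of 6390 ± 1784 in high-fat mice with antibody, 5166 ± 2107 in high-fat mice without, 9669 ± 3189 in control-diet mice with antibody and 10963 ± 5636 in those without (SD, n = 4 each). The calls of Hadhb and Acaa2 were kept in 5 and 3 of the 16 fits with a library left out.

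Of the 4 enzymes that prepare unsaturated chains, Decr2 fell, and Decr1, Eci1 and Eci2 did not pass. Decr2, the peroxisomal dienoyl-CoA reductase (chr17:26081208-26090337, minus strand), had 627.6, 625.6, 558.7 and 655.9 normalized counts in high-fat mice with antibody and 755, 521.5, 521.1 and 530.7 in high-fat mice without. It had 849.9, 817.7, 635.8 and 761.8 in control-diet mice with antibody and 659.2, 774.4, 1284 and 870.6 in untreated control-diet mice. Every control-diet library lay above every high-fat library except high-fat untreated replicate 1 and high-fat antibody replicate 4, which overlapped the lowest control-diet libraries. Decr2 fell by 0.45 on the log2 scale (SE 0.12; limma, adjusted p = 0.0219), close to its mitochondrial counterpart Decr1 at -0.50 ± 0.18 (limma, adjusted p = 0.0562).

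The electron transfer flavoprotein carries electrons from the dehydrogenases. Its beta subunit Etfb (chr7:43444083-43457800, plus strand) had 1840, 1695, 1192 and 1701 normalized counts in high-fat mice with antibody and 1822, 1101, 1492 and 1289 in high-fat mice without, against 2527, 1941, 2128 and 1980 in control-diet mice with antibody and 1565, 2306, 2656 and 2662 in those without. Apart from untreated control-diet replicate 1, every control-diet library lay above every high-fat library. Etfb fell by 0.55 on the log2 scale (SE 0.13; limma, adjusted p = 0.0137), the smallest adjusted p of the 34 genes. The alpha subunit Etfa, which forms a heterodimer with it, changed by -0.17 ± 0.13 (limma, adjusted p = 0.352), and the ubiquinone oxidoreductase Etfdh by -0.59 ± 0.23 (limma, adjusted p = 0.0774). Etfb shares 44.8% of its 50-base windows with other annotated genes, 43.8% with Gm45233.

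The acyl-CoA thioesterases release free fatty acids from CoA. Acot2, the mitochondrial form, had 416.9, 408.3, 368.9 and 428.7 normalized counts in high-fat mice with antibody and 390.4, 305.4, 205.6 and 232.3 in high-fat mice without. It had 647.2, 500.3, 449 and 585 in control-diet mice with antibody and 332.3, 419.5, 1055 and 515.4 in untreated control-diet mice. With antibody the diets did not overlap, and without antibody they did. Acot2 fell by 0.67 on the log2 scale averaged over antibody (SE 0.20; limma, adjusted p = 0.0292). The call of Acot2 was kept in 11 of the 16 fits with a library left out. Acot1, its cytosolic neighbour 21629 bases away on the same strand of chromosome 12, had 10.27 to 77.18 normalized counts, too few for a precise value (log2 change -0.45 ± 0.40, limma, adjusted p = 0.427). Acot2 shares 24.5% of its 50-base windows with Acot1.

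Of the 8 peroxisomal genes, Abcd3 and Pex11a fell. Pex11a, a membrane protein that promotes peroxisome division and a target of PPARα, had 1902, 1757, 1443 and 1729 normalized counts in high-fat mice with antibody and 1871, 1184, 1426 and 1259 in high-fat mice without, against 2224, 2044, 1896 and 1911 in control-diet mice with antibody and 1511, 1947, 2498 and 2180 in those without. It fell by 0.37 on the log2 scale (SE 0.11; limma, adjusted p = 0.0281). Abcd3, the most abundant transporter of the peroxisomal membrane in many tissues, averaged 3438 ± 524.3 in high-fat mice with antibody, 2800 ± 566.8 in high-fat mice without, 4518 ± 956 in control-diet mice with antibody and 4881 ± 2025 in those without (SD, n = 4 each), and fell by 0.55 (SE 0.18; limma, adjusted p = 0.039). The calls of Abcd3 and Pex11a were kept in 6 and 9 of the 16 fits with a library left out. The remaining peroxisomal genes differed little, from -0.18 for Scp2 to 0.09 for Abcd2, save Ehhadh, the bifunctional enzyme induced by PPARα in rodent liver, at -0.54 ± 0.29 (limma, adjusted p = 0.182).

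The receptors differed from each other in spread. Ppara, the receptor that induces oxidation genes on fasting, had 487.6, 359.3, 224.3 and 838.8 normalized counts in high-fat mice with antibody, 711.1, 168.5, 202.7 and 242.7 in high-fat mice without, 842.1, 551.7, 566.8 and 429 in control-diet mice with antibody, and 211.5, 488.9, 1677 and 547.1 in untreated control-diet mice. The groups overlapped, and the averaged log2 change was -0.72 ± 0.40 (SE; limma, adjusted p = 0.201). Ppard, which is expressed in most tissues, had between 894.4 and 1176 normalized counts in the 16 libraries and a log2 change of 0.02 ± 0.07 (limma, adjusted p = 0.848).

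**Figure D3:**
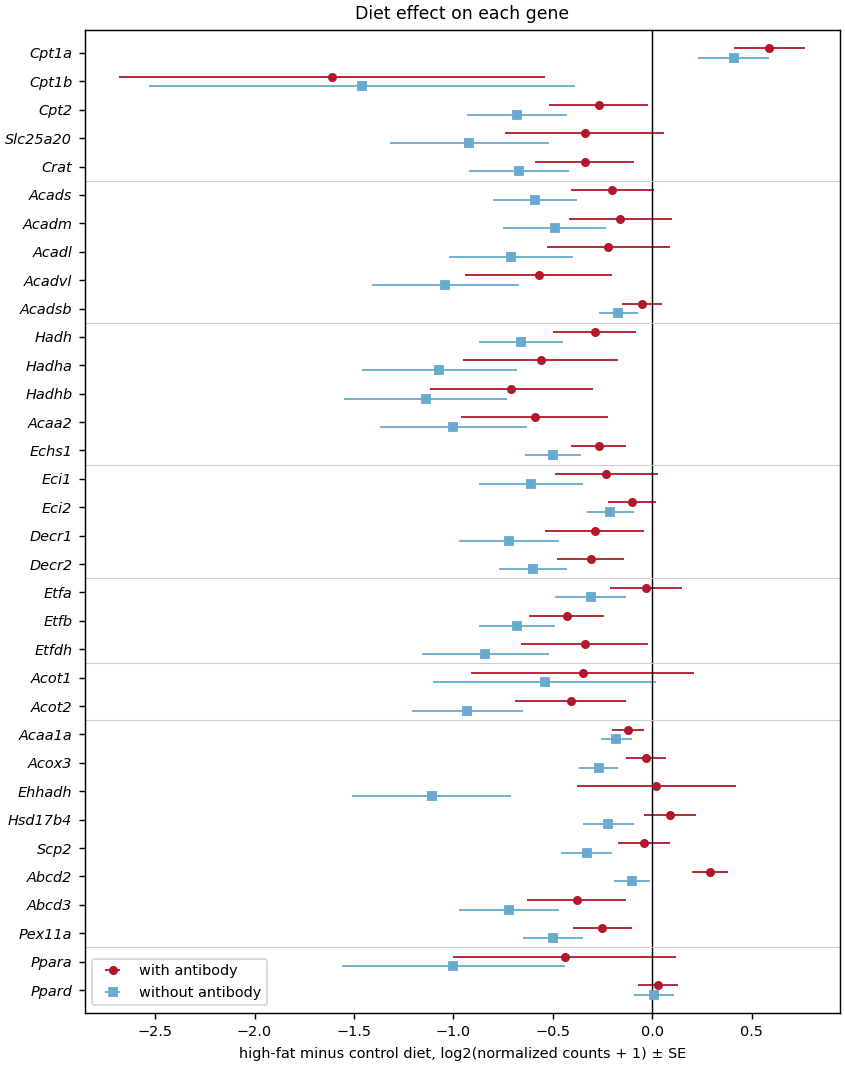
Difference of high-fat minus control diet for each of the 34 genes in log2(normalized counts + 1), with its SE, in mice with antibody (circles) and without (squares), from limma with 4 libraries a group. Cpt1a lies to the right of 0 in both (0.59 and 0.41), most other genes lie to the left in both, and the squares are the farther from 0 for most of them, though the difference between circles and squares passed for no gene.

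Taken by antibody status, the diet comparison rested on 4 libraries a side, and the comparisons with and without antibody use separate libraries. With antibody, 29 of the 34 genes were lower on the high-fat diet (46.1% of all genes tested) and 5 were higher, with a median of -0.27, and 0 passed; 1 of 14189 genes fell (0.00705%) and 0% rose. At an unadjusted p under 0.05 in limma, 2 members were higher (8.43% of all genes), Cpt1a and Abcd2, and 1 was lower (9.71%), Etfb. In 3 members every high-fat library was below every control-diet library (9.08% of all genes), and in 1, Cpt1a, above (6.38%).

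Without antibody, 32 of the 34 were lower on the high-fat diet (46.9% of all genes tested), with a median of -0.63. Etfb fell by 0.68 on the log2 scale (SE 0.19; limma, adjusted p = 0.0424), Echs1 by 0.50 (SE 0.14; limma, adjusted p = 0.0472) and Decr2 by 0.60 (SE 0.17; limma, adjusted p = 0.0475). These 3 calls compare with 5.17% of all genes that fell and 2.98% that rose. At an unadjusted p under 0.05 in limma, 23 members were lower (16.1% of all genes) and 1, Cpt1a, was higher (14.2%). Acot2 (log2 change -0.93, limma, adjusted p = 0.051) and Pex11a (-0.50, limma, adjusted p = 0.0546) lay just outside. In 0 of the 34 did the groups separate completely, against 5.19% of all genes that separated downward, and untreated control-diet replicate 1 was low and untreated high-fat replicate 1 high for most members. Without the first of these libraries 28 members passed (27 lower and Cpt1a higher) along with 29% of all genes, and without the second 14, all lower, along with 13.8%, against 8.15% of all genes with every library; without any 1 of the other 14 libraries 0, 1 or 2 passed.

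The levels moved with the brown and beige fat cell markers. Ucp1, the uncoupling protein of thermogenic fat cells, ranged from 47.92 to 6111 normalized counts in high-fat mice with antibody, 14.84 to 6053 in high-fat mice without, 1810 to 25010 in control-diet mice with antibody and 206.8 to 44771 in control-diet mice without. Its averaged diet change was -3.84 ± 1.39 on the log2 scale (limma, adjusted p = 0.0633), and that of Cidea, another gene of such cells, was -2.77 ± 0.78 (limma, adjusted p = 0.0251). The 4 libraries of a group stood in the same order for Ucp1 as for 6 of the 34 members in high-fat mice with antibody (5.94% of all genes), 20 in high-fat mice without (6.7%), 19 in control-diet mice with antibody (8.08%) and 25 in control-diet mice without (15.3%). Acads, Acadvl, Eci1 and Etfa kept this order in all 4 groups; Cpt1a, Acadsb, Acox3, Abcd2 and Ppard kept it in none. Cpt1a ran in exactly the reverse order of Ucp1 in high-fat mice with antibody (6.97% of all genes) and without (4.14%).

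With the mean of the 11 brown and beige markers as a covariate, an alternative chosen after seeing the data, 0 of the 34 genes passed in the averaged diet comparison, where 1.32% of all genes did, and their median log2 change was -0.01. Cpt1a then stood at 0.23 (limma, adjusted p = 0.262) and Etfb at -0.21 (limma, adjusted p = 0.125). The markers differed between the diets themselves, 5 of the 11 having fallen and 1 (Tmem26) risen, so that a diet difference and a difference in the marker level cannot be told apart in these 16 libraries. Muscle markers moved differently: with their mean as the covariate 16 of the 34 passed in the averaged comparison, 15 lower and Cpt1a higher, where 20% of all genes did. Without antibody the same covariate left 0 of the 34 and 0.832% of all genes past the threshold. In untreated high-fat mice the order of the muscle actin Acta1 was the exact reverse of that of Ucp1, hence of the same 20 members (6.7% of all genes). No member ran in the reverse order of Acta1 in high-fat mice with antibody (2.7%) or control-diet mice with antibody (6.7%). In untreated control-diet mice only Ppard did (2.18%). In control-diet mice with antibody, replicate 1 was the highest library for Acta1 and for 28 of the 34 members alike (28.2% of all genes). The exact order of Acta1 was that of 4 members there (6.79%), Hsd17b4, Pex11a, Decr2 and Cpt1b. It was that of 1 member in high-fat mice with antibody (3.35%), 1 in high-fat mice without (4.13%) and 0 in untreated control-diet mice (2.78%). Adipoq had the order of the same 20 members in untreated high-fat mice (6.7% of all genes). With antibody on the control diet it ran in the exact reverse of 19 (8.09%). Its order was that of 1 member in high-fat mice with antibody (4.34%) and of 0 in untreated control-diet mice (2.78%).

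**Figure D4:**
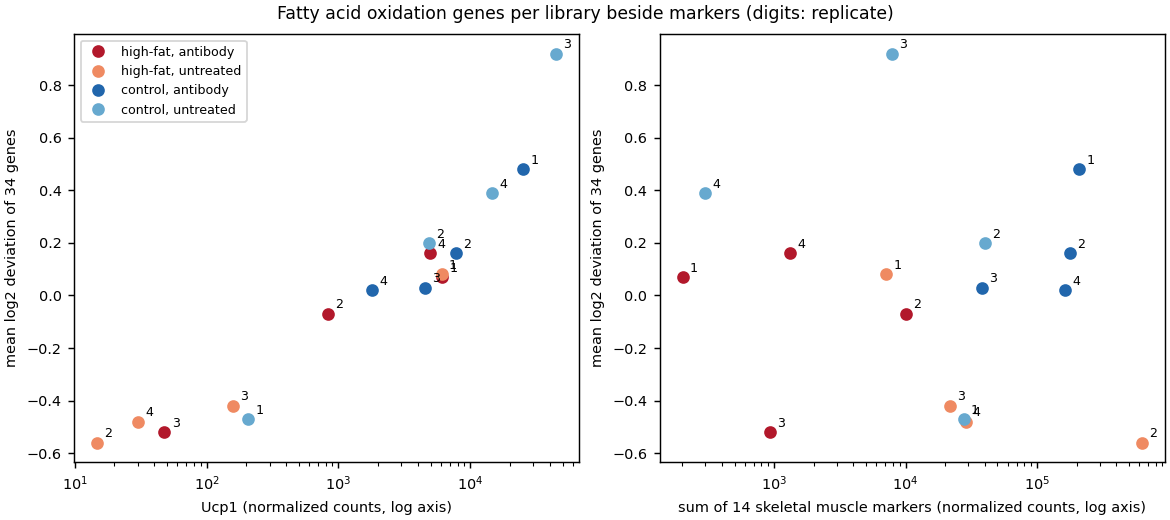
Mean log2 deviation of the 34 genes in each library (vertical axis) against marker levels in the same library (horizontal axes, log scale), coloured by group with the replicate number beside each point. The mean is 0.92 in untreated control-diet replicate 3, which has 44771 normalized counts of Ucp1, and -0.56 in untreated high-fat replicate 2, which has 14.84, whereas libraries with large muscle marker sums lie both high (0.48 in control-diet antibody replicate 1) and low.

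Spread within groups was unequal. The highest over the lowest library of a group, as a median over the 34 genes, was 1.5 in high-fat mice with antibody, 1.6 in high-fat mice without, 1.38 in control-diet mice with antibody and 2.66 in control-diet mice without. Untreated control-diet mice thus held both the highest library (replicate 3, above the mean over all libraries for 32 genes) and one of the lowest (replicate 1, above it for 2).

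No oxidation gene passed for the antibody on either diet. On the high-fat diet 32 of the 34 were higher with antibody (50.1% of all genes tested), with a median log2 change of 0.24, and 0 passed, against 0.0352% of all genes that rose and 0.0423% that fell. At an unadjusted p under 0.05 stood 1 member (6.57% of all genes were higher at that level), and the same gene was the 1 whose groups did not overlap (3.91%). This was Abcd2, a peroxisomal importer of very long-chain acyl-CoA that is abundant in fat. It had 17257, 20857, 19577 and 17662 normalized counts in high-fat mice with antibody and 16317, 15045, 14480 and 15417 in high-fat mice without, against 13885, 17872, 14789 and 15243 in control-diet mice with antibody and 16052, 16392, 17731 and 15508 in untreated control-diet mice. All 4 high-fat libraries with antibody were above all 4 without, by 0.30 ± 0.09 on the log2 scale (SE; limma, adjusted p = 0.165), and the control-diet groups overlapped (-0.09 ± 0.09; limma, adjusted p = 0.756).

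Ehhadh stood at 3451, 4614, 1947 and 4869 normalized counts in high-fat mice with antibody and 3122, 1351, 2134 and 2183 in high-fat mice without, a log2 change of 0.73 ± 0.40 (limma, adjusted p = 0.457) with overlapping groups. Acot2 had at least 368.9 normalized counts in every high-fat library with antibody, and of those without antibody only replicate 1, with 390.4, reached that range (0.56 ± 0.28; limma, adjusted p = 0.402). The median of 0.24 became -0.02 with either the muscle or the beige marker mean as a covariate; muscle markers were lower in most high-fat libraries with antibody than in those without, and the log2 change of Acta1 was -3.95 ± 1.29 (limma, adjusted p = 0.187).

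On the control diet 28 of the 34 were lower with antibody (52% of all genes tested), with a median of -0.11, and 0 passed, against 0.0564% of all genes that rose and 0.0423% that fell. Ehhadh had 4472, 3922, 3169 and 2541 normalized counts in control-diet mice with antibody and 1784, 6692, 7460 and 4763 in those without, a log2 change of -0.40 ± 0.40 (limma, adjusted p = 0.769). Single libraries set the direction here: without untreated control-diet replicate 3, the highest for most members, the median was 0.08.

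The difference between the antibody effects on the 2 diets was positive in 33 of the 34 genes (52.7% of all genes tested), with a median of 0.34, and 0 passed, as did 0% of all genes in either direction. The comparisons on the 2 diets use separate libraries, and the difference uses all 4 groups. The largest single values were 1.13 ± 0.57 for Ehhadh (limma, adjusted p = 0.852) and 0.58 ± 0.56 for Slc25a20 (limma, adjusted p = 0.878). Abcd2, at 0.39 ± 0.13, was the 1 member with an unadjusted p under 0.05 (limma, adjusted p = 0.461), against 2.46% of all genes in that direction.

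**Figure D5:**
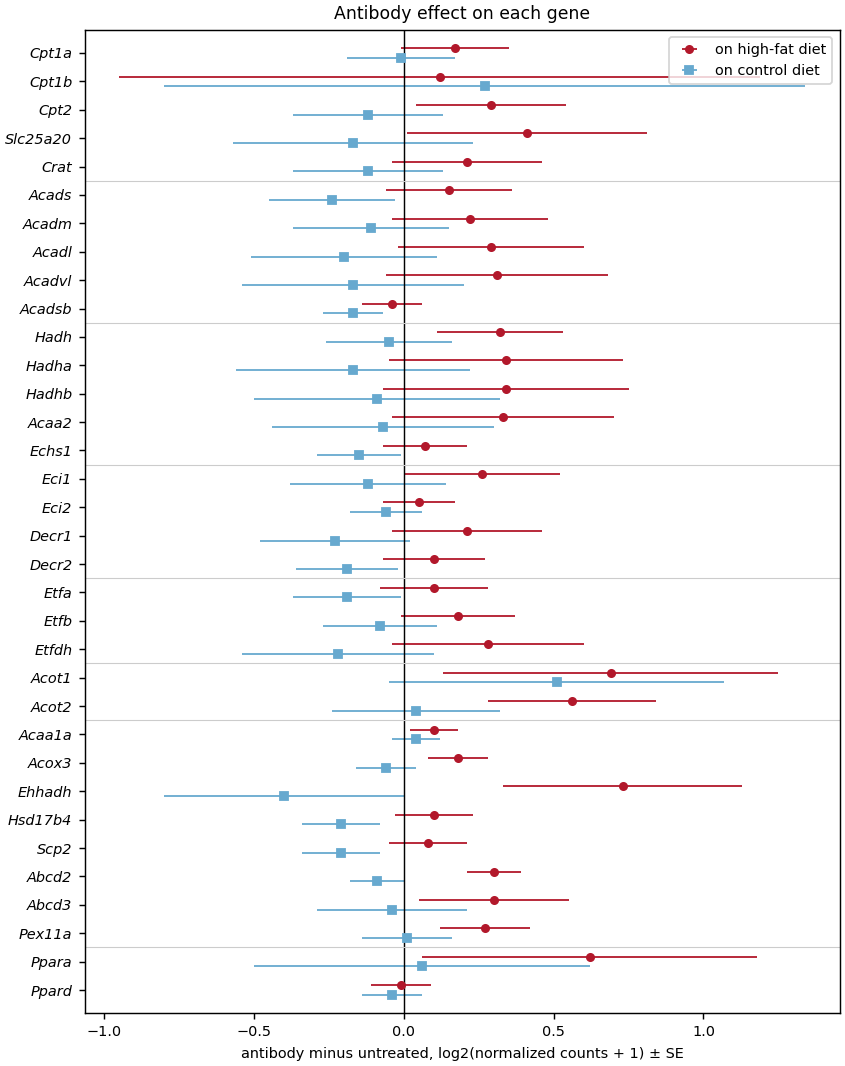
Difference of antibody minus untreated for each of the 34 genes in log2(normalized counts + 1), with its SE, on the high-fat diet (circles) and the control diet (squares), from limma with 4 libraries a group. Circles lie to the right of 0 for 32 genes and squares to the left for 28, and none passed; the widest bars belong to Cpt1b.

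Genes of the pathway outside the 34 were counted from lists, again in the diet comparison averaged over antibody. Of 24 other mitochondrial oxidation genes tested, 10 fell and 0 rose, among them Mcee, an epimerase that feeds propionyl-CoA carbon into the citric acid cycle, by 0.46 on the log2 scale (limma, adjusted p = 0.00539). Of 37 other peroxisomal genes, 14 fell and 0 rose, among them Pecr, the peroxisomal enoyl-CoA reductase, by 0.48 (limma, adjusted p = 0.00276) and Pex16, a factor of peroxisome membrane assembly, by 0.49 (limma, adjusted p = 0.00719). All 22 respiratory chain genes tested fell, for example Cox5a, a cytochrome c oxidase subunit, by 0.92 (limma, adjusted p = 0.00797). These shares stand beside 11.1% of all genes that fell and 8.28% that rose.

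Of 22 regulators and other PPAR targets tested, 4 rose and 4 fell, with a median log2 change of -0.03 (11 above 0 and 11 below). Among those that rose were Vnn1, a pantetheinase induced by PPARα, Ucp2, an uncoupling protein relative, and Angptl4, an inhibitor of lipoprotein lipase. Vnn1 had means of 1766 ± 222.5 normalized counts in high-fat mice with antibody, 1674 ± 331.6 in high-fat mice without, 948.8 ± 81.48 in control-diet mice with antibody and 918.1 ± 442.3 in those without (SD, n = 4 each). It rose by 0.92 on the log2 scale (limma, adjusted p = 0.00533) and Angptl4 by 0.80 (limma, adjusted p = 0.0163). Those that fell were Esrra, an oestrogen-related receptor, by 0.67 (limma, adjusted p = 0.0179), its relative Esrrg by 1.47 (limma, adjusted p = 0.0224), the coactivator Ppargc1b by 0.66 (limma, adjusted p = 0.0424) and Rxrb, a dimer partner of the PPARs, by 0.23 (limma, adjusted p = 0.0384). Esrrg is a low gene, with a mean of 28.89 normalized counts in untreated high-fat mice, near the filter at 24.49. Members that are PPARα targets in rodents include Cpt1a, which rose, Acot2 and Pex11a, which fell, and Ehhadh, which did not pass. These are examples only, since the PPARs induce many of the 34 genes, of which 10 fell and 1 rose.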

How the data were processed

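Poly-A RNA of 16 inguinal fat libraries was sequenced from stranded preparations, per the labels' protocols. The submitters' processing notes name limma 3.42.2, STAR 2.7.0e, fastp 0.20.1, Subread 1.6.2 and featureCounts, and the builds GRCm38 and mm10. For their roles, the normalization and the use of strand in counting, nothing is stated in the labels or the file header. The authors deposited a linear signal per gene and library, called normalized counts, for 16091 genes. The values are not whole and whole reads could not be recovered, so the read depth is unknown and no count model was run. Of all values 255 were 0, and 0 columns were left unmapped.

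Values were converted to log2(value + 1), which understates changes of low genes. Genes above 24.49 (the median column total divided by 1e6) in at least 4 libraries were tested, 14189 in all, and 1902 were left out. With limma 3.58.1 in R 4.3.3, 1 mean per group was fitted to all 16 libraries with a variance trend (12 residual and 3.07 prior degrees of freedom). All p-values are two-sided and were adjusted over all genes tested in a contrast (Benjamini-Hochberg), with a threshold of 0.05; the fit was tested on simulated data. Group values are means with SD over 4 libraries, and diet differences run high-fat minus control, antibody differences antibody minus untreated.

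The 34 genes, the other gene lists and the marker lists were chosen with earlier results of these data known. Members chosen for closer description were those past the threshold in any contrast, the member of each role with the smallest p, and 14 set by name. These classes overlap. Levels were given per library, as group means with SD or as a range, and no group values were given for Acadm, Acadl and Hadha. Abcd2 was added after its values were seen. Alternatives changed the pseudocount (10), the filter, the scaling (quantile), the fit (groups compared alone, replicate number as a block), the covariates (muscle markers; brown and beige markers, added after seeing the data) and the libraries left out. Same-numbered libraries of different groups deviated together at r over 0.1 in 10 of 24 pairs, against 25 of 72 pairs with unlike numbers. The numbers were not taken to pair samples, although such correlations cannot show whether they do. Shared sequence was counted as 50-base windows of a gene's exons found in another annotated gene. Coordinates come from GENCODE vM21 on GRCm38 and promoter sequences from RefSeq on GRCm38.p6; 28 of 34 symbols matched a promoter.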

Additional observations from a re-analysis of the deposited data

Results flagged for a closer look

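In 8 of the 136 groups of 4 libraries examined (34 genes in 4 groups, 5.88%), 1 library stood far from the other 3, by a gap that chance gives in about 1 of 20 groups. Of these gaps, 4 came from untreated high-fat replicate 1, which was the highest of its group: Crat with 13534 normalized counts, Acaa2 with 8309, Decr2 with 755 and Etfdh with 5091. This library had 6053 normalized counts of Ucp1, against 14.84 to 158.5 in the other 3 of its group. High-fat antibody replicate 3 was the lowest of its group for Eci1 with 2555, Etfa with 7138 and Scp2 with 11858 normalized counts, and it had 47.92 of Ucp1, against 835 to 6111 in the other 3. Control-diet antibody replicate 4 was the highest of its group for Ppard, with 1176 normalized counts. The part of Ucp1-positive cells in these gaps was not tested.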

How the results depend on the processing

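Calls among the 34 genes depended on the fit and on single libraries; the members' median diet difference stayed negative except with the beige covariate in mice with antibody. In the averaged diet comparison, 11 members and 2757 genes passed, against 2 (Cpt1a and Etfb) and 1498 with the replicate number as a block, 4 and 1562 without both replicate 3 of the untreated control-diet mice and replicate 2 of the untreated high-fat mice, and 0 and 188 with the beige marker mean as covariate, where the members' median was -0.01. Without antibody, 3 members and 1157 genes passed, against 0 and 0 with the replicate block, 0 and 0 with the groups compared alone, 0 and 0 without both libraries, 0 and 118 with the muscle covariate, 0 and 29 with the beige covariate (median -0.12), and 1 member with no filter. With antibody, 1 gene passed, against 2 with no filter, 641 with the groups alone, 0 with the replicate block, 298 without both libraries and 146 with the beige covariate, where the median was 0.07. For the antibody on the high-fat diet, 11 genes passed, against 4 with the groups alone, 2 with the replicate block, 0 with the muscle covariate and 53 with the beige covariate, and both covariates gave a median of -0.02. For the antibody on the control diet, 14 genes passed, against 0 alone, 2 with the block, 5 with muscle and 118 with beige; the median was 0.04 with muscle and 0.08 without both libraries. For the interaction, 0 genes passed (349 higher and 528 lower at an unadjusted p under 0.05 in limma), 1 with the block, and the median was -0.01 with muscle. The groups-alone fit was not run for the averaged comparison and the interaction, which need all groups. The libraries left out together had the highest (0.92) and the lowest (-0.56) mean log2 deviation of the 34 genes among the 16 libraries. Leaving them out was thus bound to shrink the members' diet difference, and that fit is no independent check.

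Under the beige covariate the averaged log2 change turned to 0.13 for Acadl, 0.17 for Acadm, 0.19 for Acot1, 0.48 for Cpt1b, 0.14 for Ehhadh, 0.30 for Ppara and -0.01 for Ppard, and that without antibody to 0.01 for Acadl, 0.10 for Acadm, 0.23 for Acot1, 0.97 for Cpt1b, 0.23 for Ppara and -0.03 for Ppard. Without both libraries, Acot1 turned to 0.01 and Ppard to -0.02 in the comparison without antibody; the cause was not tested.

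With 1 library left out at a time, genes past the threshold numbered 1593 to 4721 (averaged), 0 to 4119 (without antibody), 0 to 239 (with antibody), 1 to 271 (antibody on the high-fat diet), 0 to 86 (antibody on the control diet) and 0 to 1 (interaction), and members 4 to 27, 0 to 28, 0 to 1, and 0 in the last 3. The members' medians ranged from -0.59 to -0.34, -0.88 to -0.42, -0.33 to -0.12, 0.17 to 0.38, -0.36 to 0.08 and 0.16 to 0.60 in the same comparisons. Acot1 without antibody ranged from -0.89 to 0.04, and Ppard from -0.04 to 0.05 there and from -0.00 to 0.06 averaged. In the averaged comparison the members passing, beside the genes passing in the same fit, were 27 without untreated control-diet replicate 1 (4721 genes) and 18 without untreated high-fat replicate 1 (3034 genes), but 4 (1593 to 1816 genes) without control-diet antibody replicate 1, untreated control-diet replicate 4, high-fat antibody replicate 3 or untreated high-fat replicate 4, 5 without control-diet antibody replicate 2, untreated control-diet replicate 3, or untreated high-fat replicates 2 or 3 (1717 to 2292 genes), and 7 (2333 and 2393 genes) without untreated control-diet replicate 2 or high-fat antibody replicate 2. Named genes were followed under all alternatives in the averaged diet comparison and in that without antibody. Of these values, 735 kept direction and call status, which includes values past the threshold in neither fit. Another 149 lost the call, 34 gained it and 22 turned direction. Of the 14 calls in the main fit, the pseudocount of 10 kept 14 and the muscle covariate 11. The replicate block kept 2 and the beige covariate 0. A library's best match in another group, among 4 candidates each time, had its own number in 13 of 48 cases. That cannot show whether samples were paired or batched by number, so the standing of the replicate block is not known. Depth could not be used to set limits.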

Other observations

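Within the electron transfer flavoprotein, the subunits of the heterodimer stood apart on the high-fat diet: the averaged log2 change was -0.55 for Etfb and -0.17 for Etfa, and the difference between the 2 genes was not tested. In the averaged diet comparison 1 of 10 macrophage markers and 1 of 6 endothelial markers passed, both higher, against 8.28% of all genes that rose: Cd68, a lysosomal protein of macrophages, by 0.60 (limma, adjusted p = 0.0132) and Pecam1, an endothelial adhesion molecule, by 0.30 (limma, adjusted p = 0.0206). Slc2a4, the insulin-regulated glucose transporter of fat and muscle, fell by 0.67 (limma, adjusted p = 0.00498), with means of 6602 ± 305.5 normalized counts in high-fat mice with antibody, 5671 ± 835.4 in high-fat mice without, 9805 ± 1003 in control-diet mice with antibody and 9870 ± 2712 in those without (SD, n = 4 each). It was the 1 of 10 adipocyte markers that passed, where 11.1% of all genes fell. Of the 10 markers, 5 were above 0 and 5 below. Esrrg, an oestrogen-related receptor that controls oxidative genes, fell by 2.47 without antibody (limma, adjusted p = 0.0299), with means of 28.89 ± 27.2 in untreated high-fat mice and 139.6 ± 67.53 in untreated control-diet mice (SD, n = 4 each). With antibody the means lay closer, at 67.92 ± 32.14 in high-fat mice and 86.59 ± 8.7 in control-diet mice (SD, n = 4 each). With the mean of the brown and beige markers as a covariate the averaged change of Etfb was -0.21 (limma, adjusted p = 0.125).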
